A study of Mus musculus with 80 samples.

Results

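The genes described here encode the proteins of the cytosolic ribosome. They were taken from the deposited liver count table by name: every row whose symbol starts with Rpl or Rps followed by a digit, plus Rplp0, Rplp1, Rplp2 and Rpsa, without rows named as pseudogenes with -ps and without the Rps6k kinases. This gave 90 of 22103 rows. Of the 90, 43 encode core proteins of the large subunit, 3 encode the stalk proteins P0, P1 and P2, 31 encode core proteins of the small subunit, and 12 are paralogs or retrocopies such as Rps27l, Rpl22l1 and Rps27rt. The remaining row, Rps19bp1, shares only the start of its name with the family, since it encodes a protein that binds Rps19. A filter on low counts, applied over the whole table, kept 88 of the 90, and Rpl3l and Rps12l1 were left out of the tests.

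Liver RNA came from 20 female Balb-C mice aged 10 to 12 weeks that were gavaged on 7 days with PFESA-BP2 (Nafion byproduct 2), a perfluoroalkyl ether sulfonic acid. The 5 groups of 4 mice received 0 (control), 0.03, 0.3, 3.0 or 6.0 mg/kg-day. The labels disagree on the control vehicle: the titles name DMSO and the design text deionized water. Each mouse gave 1 library, run over 4 lanes, and the lanes are already combined in the table. Totals per library ranged from 13086779 to 21467012 counts. Albumin was the highest of the listed hepatocyte markers in the control livers, at a mean of 126657 CPM. CPM are counts per 1000000 counts of the library, after scaling between libraries (TMM).

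A ribosome is a small subunit that decodes the messenger RNA joined to a large subunit that makes the peptide bond, and most of its proteins are needed in equal number. The messenger RNAs of these proteins usually begin with a C followed by an unbroken run of pyrimidines, the terminal oligopyrimidine (TOP) motif, through which mTORC1 and the RNA-binding protein Larp1 control how much of them is translated. Transcription of the genes is supported by Myc. Spare copies of Rpl5, Rpl11 and some other ribosomal proteins bind Mdm2, which links an upset in ribosome assembly to p53. Mammalian genomes also carry many processed pseudogenes of this family, and that bears on how reads are assigned.

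The start of the transcript is shown for 5 of the 14 members for which RefSeq places a C and at least 4 further pyrimidines exactly at the annotated start. Each line has the 15 bases before the start and the first 20 bases of the transcript, 5′ to 3′, with the pyrimidine run from the start in capitals (RefSeq promoters, GRCm38.p6).
Rpl15: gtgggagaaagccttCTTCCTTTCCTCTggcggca
Rpl35: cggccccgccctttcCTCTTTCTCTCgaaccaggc
Rpl38: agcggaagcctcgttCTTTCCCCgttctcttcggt
Rps18: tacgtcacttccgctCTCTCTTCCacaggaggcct
Rps6: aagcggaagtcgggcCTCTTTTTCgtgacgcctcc
The windows lie at chr14:18270967-18271001 (minus strand), chr2:39005112-39005146 (minus), chr11:114668565-114668599 (plus), chr17:33955646-33955680 (minus) and chr4:86857348-86857382 (minus), in the order shown. The first 4 of these genes passed the test at 6.0 mg/kg-day and Rps6 did not, so the motif is present on both sides of the threshold. The other members with such a start are not shown, so these results do not link the motif to the change.

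A promoter of 300 bases, 250 before to 50 after the start, was found in the RefSeq table for 65 of the 90 members and for 27025 genes in all. A C with at least 4 pyrimidines after it stood at the annotated start of 14 members (21.5%) and of 3.01% of all genes. The word CTTTC, the word CTTTT or the word CTCTT, on the gene's strand between 25 bases before and 50 bases after the start, were found in 48 members (73.8%) against 26.2% of all genes. CCGGAAG, the core of the site of ETS factors, searched on both strands of the whole promoter, was found in 25 members (38.5%) against 9.93%. AAGATGGCG, an element of the YY1 type, also on both strands, was found in 4 members (6.15%) against 1.64%. TATAAA upstream of the start was found in 1 member (1.54%) against 2.57% of all genes. These are matches of letters and do not show binding.

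The ribosomal protein genes took a small share of the library. Their 90 rows held 0.258% ± 0.045 of all counts in the controls (SD, n = 4), 0.238% ± 0.028 at 0.03, 0.217% ± 0.023 at 0.3, 0.303% ± 0.041 at 3.0 and 0.401% ± 0.118 at 6.0 mg/kg-day. Summed on the scaled totals, the controls were at 2992, 3079, 1891 and 2503 CPM (libraries 1, 2, 3 and 4). The 0.03 mg/kg-day livers were at 2666, 2638, 1800 and 2281 CPM, and the 0.3 mg/kg-day livers at 2448, 2197, 1917 and 2066 CPM. The livers at 3.0 mg/kg-day were at 3201, 3532, 2332 and 3152 CPM, and those at 6.0 mg/kg-day at 4386, 5647, 2517 and 3875 CPM. The highest 3 libraries of the 6.0 group lay above every control, and library 23 lay within the control range. The ratio of the group mean to the control mean was 0.897, 0.824, 1.17 and 1.57 in order of dose, so the sum was lowest at 0.3 and highest at 6.0 mg/kg-day. Without library 22 the ratio at 6.0 was 1.37.

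**Figure D1:**
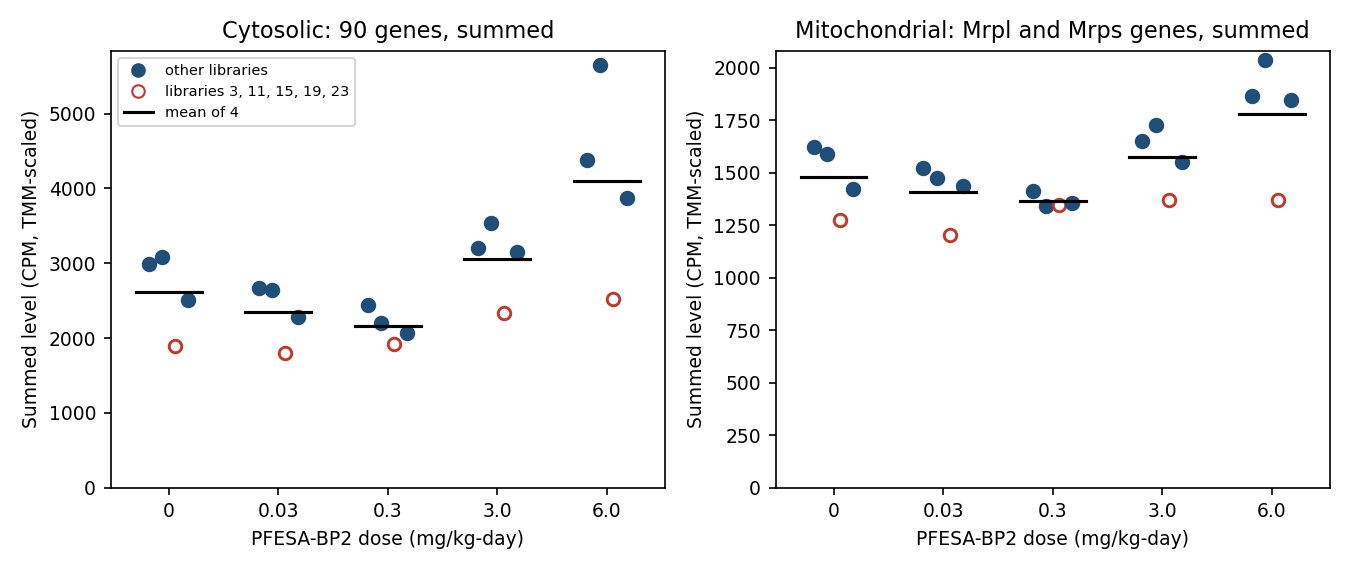
Summed level (CPM, TMM-scaled) of the 90 cytosolic ribosomal protein genes (left) and of the mitochondrial ribosomal protein genes (right) in each of 20 libraries, by dose in mg/kg-day. Filled points are 15 libraries, open points are libraries 3, 11, 15, 19 and 23, and bars are means of 4; in the left panel the open point is the lowest of its group at every dose.

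Libraries 3, 11, 15, 19 and 23, 1 in each group, stand apart from the other 15 and are shown on their own. In the sum over the 90 rows each was the lowest library of its group. Their distance is a description only, since they were picked from these data. Over the 88 tested members the median log2 difference between the library apart and the other 3 of its group, averaged over the 5 groups, was -0.62, and 78 members were below 0. Over all 15197 tested rows the median was 0.02. Over 2161 other rows with a transcript of at most 1000 bases it was -0.41, and over 80 mitochondrial ribosomal protein rows -0.45. Members below 0 in all 5 groups numbered 57, and 4 were above 0 in all 5.

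The members differed widely in this respect. Rps28 had the largest deficit in the libraries apart (-1.53), with levels of 3.39, 6.62, 1.44 and 3.46 CPM in control libraries 1 to 4. Rpl34 (-1.45) and Rps29 (-1.43) followed. Rps7 was higher in the libraries apart (0.84), as were Rpl37a (0.63) and Rpl22l1 (0.60). Rpl37a was at 51.4, 45.7, 94.2 and 65.7 CPM in the controls, with library 3 the highest. The summed level of a list of ribosomal and small RNA rows was 314 to 512 CPM in the 5 libraries apart. In the controls it reached 3816 CPM. Most of that sum was Lars2, a mitochondrial leucyl-tRNA synthetase whose row ran from 274 to 480 CPM in the libraries apart and from 1788 to 4525 CPM in the other 15. The part of this in the levels of ribosomal protein genes was not tested.

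Per length of transcript, levels spread over a wide range although most of the proteins are used in equal number. Over the 77 core members, stalk included, the median was 15.6 CPM per kb of transcript, with quartiles of 6.12 and 64.6. Rpl41 was highest at 269 CPM per kb, followed by Rplp1 at 209 and Rpl4 at 201. Rpl41 encodes the smallest ribosomal protein, and Rpl4 lines the exit tunnel of the large subunit. The lowest were Rpl17 at 0.513, Rpl12 at 1.32 and Rps27 at 1.38 CPM per kb. The highest was 524 times the lowest. The length used is that of the shortest principal transcript of GENCODE M21, which for Rps20 is a long one.

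The counting of near-identical sequences stands beside this range. Of the transcript's words of 50 bases, a median of 62.8% per member also occur in a transcript of another gene, and for 59 members the share was above 50%. The 59 had a median level of 14.4 CPM per kb, and the 31 others 32.9 CPM per kb. Across the 90 rows Spearman's rho between shared words and level per length was -0.26, a description across genes that share sequence and libraries. Of the members' values in the table, 4.94% were whole numbers to within 1e-09, against 59.2% over all rows. Rps19bp1 and Rpl3l were among the members with no shared word. How the authors divided reads that fit several genes is not stated in the labels.

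**Figure D2:**
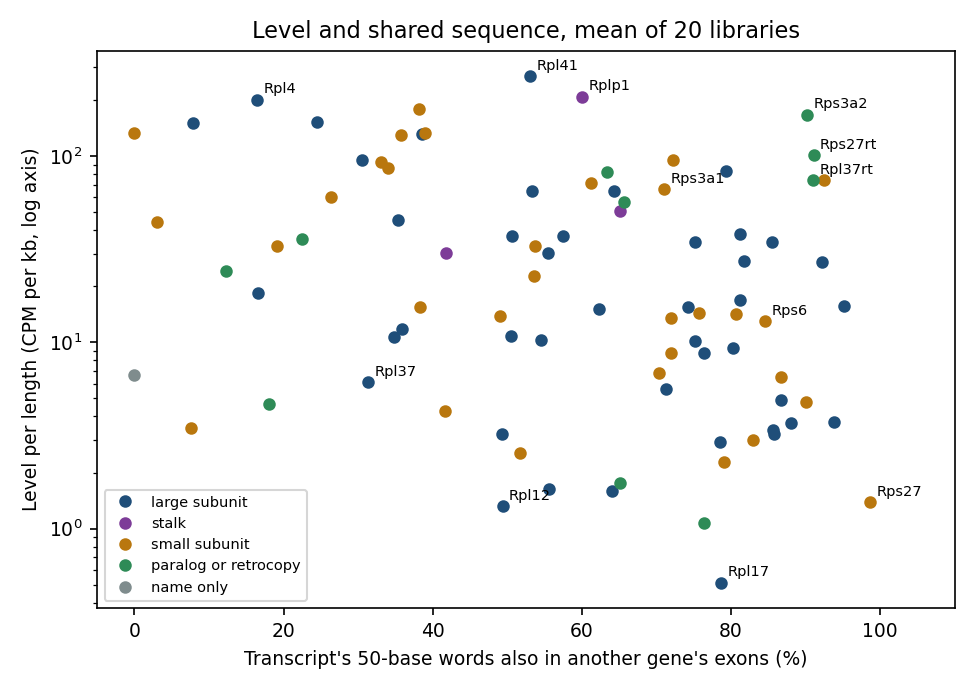
Level per length (CPM per kb of transcript, log axis, mean of 20 libraries) of the 88 tested members against the percentage of the transcript's 50-base words that also occur in a transcript of another gene, coloured by class. Rps27 lies at the far right and low, while its retrocopy Rps27rt, also at the right, lies at 101 CPM per kb.

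Rows named as pseudogenes held more counts than the parent gene for 29 of the 56 members that have such a row, and more than 5 times as many for 18. There were 132 of these rows. Together they averaged 1960 CPM, against 2856 CPM for the 90 members. Rpl3, a protein at the peptidyl-transferase centre, averaged 4.55 CPM while its pseudogene rows averaged 274 CPM. Rps6, the small-subunit protein that S6 kinases phosphorylate, averaged 11.4 CPM and its pseudogene rows 152 CPM. Rps27a, made as a fusion with ubiquitin, averaged 5.59 CPM and its pseudogene rows 122 CPM. The parent row and its copies cannot be told apart where they share the sequence, so levels and changes of such members are uncertain.

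Of 6 near-identical copies counted as members, 3 averaged more than their relative and 3 less. Rps27rt, a retrocopy of Rps27, averaged 37.8 CPM, and Rps27, a small-subunit protein with a zinc finger, 0.477 CPM. The transcripts of both are identical over 341 aligned bases. The 2 lines below give 10 bases before to 25 bases after each annotated start, with the longest run that both share in capitals (chr3:90213624-90213658 and chr9:114982715-114982749, both minus strand, GRCm38.p6). They are shown because the sequence common to both rows begins here.
Rps27: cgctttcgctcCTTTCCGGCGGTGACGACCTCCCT
Rps27rt: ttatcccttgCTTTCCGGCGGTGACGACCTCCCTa
The shared run of 24 bases begins at the annotated start of Rps27rt and 1 base inside that of Rps27, and the bases just before it differ. Rpl37rt averaged 21.9 CPM against 5.11 CPM for Rpl37, with 99.7% identity over 294 aligned bases. Rps3a2 averaged 132 CPM against 64.7 CPM for Rps3a1, with 99.5% identity over 792 aligned bases. In each of these pairs the copy was higher in 20 of 20 libraries. The other 3 copies were lower in every library. Rps3a3 averaged 1.4 CPM against 64.7 CPM for Rps3a1 (98.9% identity), Rpl6l 0.936 CPM against 82.2 CPM for Rpl6 (98.7%), and Rps12l1 0.213 CPM against 2.37 CPM for Rps12 (100%).

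Changes with dose were tested with edgeR's quasi-likelihood test on the whole table, and rose and fell are used of genes with a Benjamini-Hochberg adjusted p under 0.05. At 6.0 mg/kg-day 22 of the 88 tested members rose and 0 fell. Over all rows tested 11.2% rose and 11.2% fell. The log2 change was above 0 for 83 of the 88, with a median of 0.62 (all rows: -0.02). By role, 10 of 43 large-subunit genes rose, 2 of 3 stalk genes, 8 of 31 small-subunit genes, and 2 of 10 tested paralogs or retrocopies. The medians of these classes were 0.62, 0.80, 0.61 and 0.56. In bulk tissue a change in the mix of cells cannot be told from a change in RNA per cell.

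**Figure D3:**
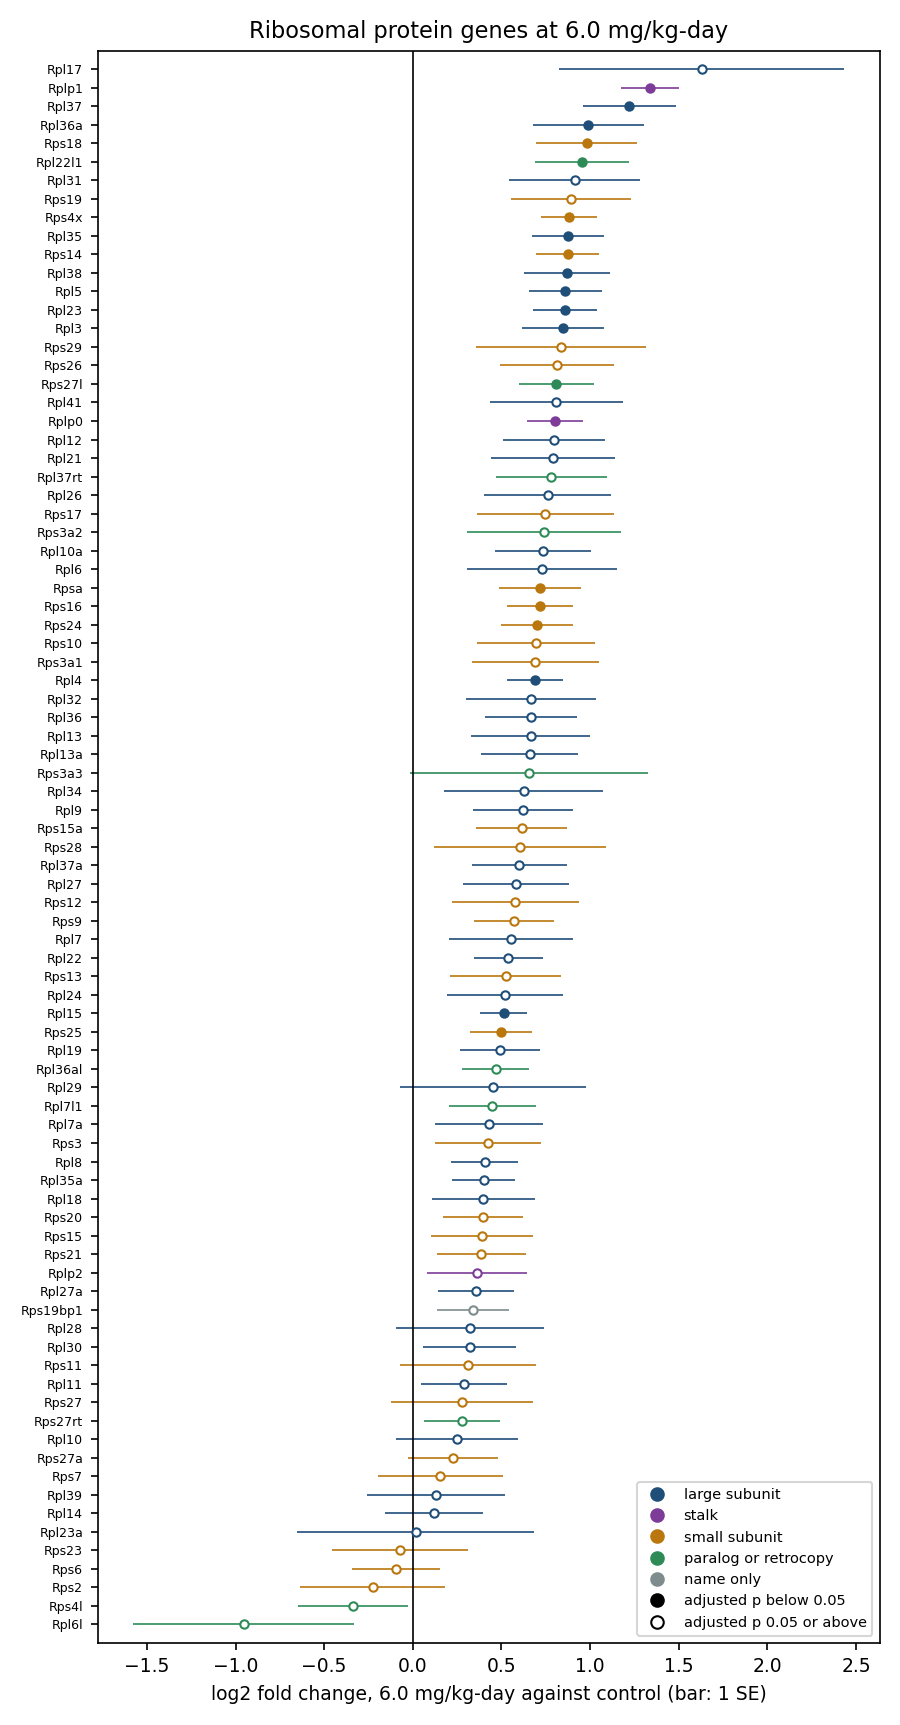
Log2 fold change at 6.0 mg/kg-day against control for 85 of the 88 tested members, with bars of 1 SE, coloured by class; filled points have an adjusted p below 0.05. All 20 filled points lie above 0, from 0.50 (Rps25) to 1.34 (Rplp1).

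Rplp1, 1 of the 3 proteins of the stalk that recruits elongation factors to the large subunit, changed most firmly (GRCm38, GENCODE M21, chr9:61913284-61914542, minus strand). The controls were at 86.3, 71.2, 68.2 and 49.8 CPM and the 6.0 mg/kg-day livers at 178, 215, 170 and 134 CPM. The groups did not overlap, and library 23 was no lower than library 24. The log2 change was 1.34 (SE 0.16, adjusted p = 4.50e-06, edgeR). At 3.0 mg/kg-day Rplp1 stood at 112, 126, 104 and 110 CPM, above every control, and was the only member that passed there (log2 0.71, adjusted p = 0.00938, edgeR). It was also the only member that passed between 6.0 and 3.0 mg/kg-day (log2 0.63, SE 0.16, adjusted p = 0.0435, edgeR), where 1.03% of all rows were higher. That last call was lost in 13 of 20 fits that left out a library.

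Rplp0, the base of the stalk, rose as well (chr5:115559467-115563727, plus strand). It was at 39.7, 43.5, 28.9 and 35.7 CPM in the controls and at 60.0, 79.7, 50.3 and 67.8 CPM at 6.0 mg/kg-day (log2 0.80, SE 0.16, adjusted p = 0.00103, edgeR). The groups did not overlap, although library 23 was the lowest treated one. Rplp2, the partner of P1, was at 27.6, 20.5, 12.4 and 17.9 CPM in the controls and at 25.1, 29.1, 13.9 and 33.0 CPM at 6.0 mg/kg-day. These groups overlapped, and the change did not pass (log2 0.36, SE 0.28, adjusted p = 0.390, edgeR).

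In the small subunit Rps4x had the smallest adjusted p. It is X-linked (chrX:102184941-102189394, minus strand) and encodes a core protein of the subunit. Control levels were 79.1, 92.7, 59.2 and 81.3 CPM, and those at 6.0 mg/kg-day 151, 185, 116 and 122 CPM, with no overlap (log2 0.88, SE 0.16, adjusted p = 0.000394, edgeR). Rps14, a protein of the platform of the subunit, went from 91.2, 110, 73.4 and 82.4 CPM to 185, 229, 122 and 118 CPM (log2 0.87, adjusted p = 0.00115, edgeR). Rpsa, also known as a laminin receptor, had controls at 49.8, 58.0, 33.5 and 50.1 CPM and treated livers at 77.3, 113, 41.1 and 83.6 CPM. Library 23 overlapped the controls, and Rpsa passed with less room (log2 0.72, SE 0.23, adjusted p = 0.0315, edgeR). Rps16, Rps18, Rps24 and Rps25 of the small subunit also rose.

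In the large subunit Rpl4, the member with the highest mean count, was at 323, 334, 220 and 255 CPM in the controls and at 439, 568, 338 and 481 CPM at 6.0 mg/kg-day. The groups did not overlap (log2 0.69, SE 0.16, adjusted p = 0.00310, edgeR). Rpl37 was at 3.39, 4.58, 2.58 and 4.50 CPM in the controls and at 10.7, 12.1, 7.01 and 5.53 CPM at 6.0 mg/kg-day, and showed the second largest change among those that passed (log2 1.22, SE 0.26). Rpl23, one of the proteins that bind Mdm2, rose from 11.4, 9.99, 8.50 and 7.69 CPM to 19.8, 22.0, 12.5 and 13.9 CPM. Its log2 change was 0.86. Rpl3, Rpl5, Rpl15, Rpl35, Rpl36a and Rpl38 of the large subunit also rose, with log2 changes from 0.51 (Rpl15) to 0.99 (Rpl36a).

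The 2 partners of the 5S RNA differed in their result. Rpl5 rose from 4.63, 5.48, 8.42 and 7.89 CPM to 15.2, 14.5, 8.90 and 9.18 CPM (log2 0.86, SE 0.20, adjusted p = 0.00444, edgeR). Rpl11 was at 12.1, 17.0, 7.31 and 17.1 CPM in the controls and at 21.3, 21.0, 13.9 and 9.43 CPM at 6.0 mg/kg-day, and did not pass (log2 0.29, SE 0.24, adjusted p = 0.432, edgeR). Of the transcript words of Rpl5 93.8% are shared with another gene and of Rpl11 62.2%. Whether the 2 genes differ from each other was not tested.

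Both paralogs that rose have a near relative in the list. Rps27l, which differs from Rps27 by a few residues and is induced by p53, was at 15.4, 13.0, 16.0 and 14.1 CPM in the controls and at 32.6, 36.2, 15.7 and 18.0 CPM at 6.0 mg/kg-day. Libraries 21 and 22 were high, and library 23 lay among the controls (log2 0.81, SE 0.21, adjusted p = 0.00895, edgeR). Rpl22l1 was at 25.2, 25.6, 38.6 and 20.1 CPM in the controls and at 58.6, 60.8, 56.5 and 35.7 CPM at 6.0 mg/kg-day, with 1 treated library inside the control range (log2 0.95, SE 0.26, adjusted p = 0.0127, edgeR). Its relative Rpl22 did not pass (log2 0.54, adjusted p = 0.0507, edgeR). Rpl36al did not pass (log2 0.47, adjusted p = 0.0808) while Rpl36a did (log2 0.99, adjusted p = 0.0281, edgeR). Rpl17 had the largest fitted change of all (log2 1.63) but a mean of 0.398 CPM and an SE of 0.80, and did not pass. Nor did Rpl12 (0.80) and Rpl41 (0.81). Rpl7 had a log2 change of 0.55 and Rpl7l1 of 0.45, and neither passed.

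**Figure D4:**
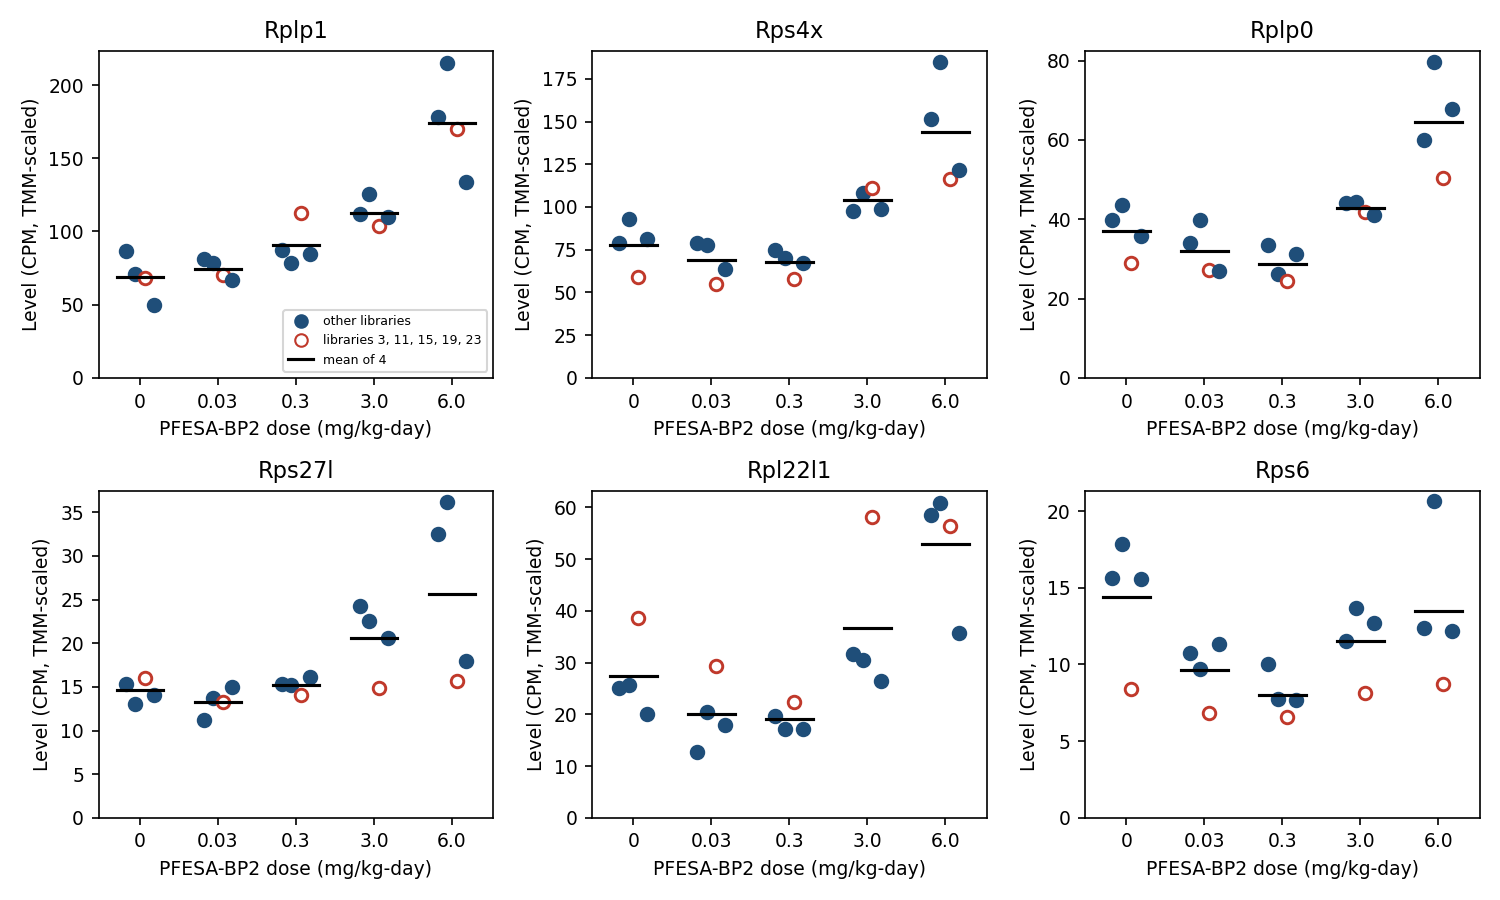
Level (CPM, TMM-scaled) of 6 members in each library by dose in mg/kg-day; filled points are 15 libraries, open points libraries 3, 11, 15, 19 and 23, and bars are means of 4. Rplp1, Rps4x and Rplp0 have every library at 6.0 mg/kg-day above every control, Rps27l and Rpl22l1 overlap in the libraries given in the text, and Rps6 has its lowest mean at 0.3 mg/kg-day.

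Not every member was higher at 6.0 mg/kg-day. The fitted change was below 0 for Rpl6l (-0.95), Rps4l (-0.34), Rps2 (-0.22), Rps6 (-0.10) and Rps23 (-0.07), and none of them passed. Rps6 was at 15.6, 17.9, 8.43 and 15.6 CPM in the controls and at 12.3, 20.6, 8.69 and 12.2 CPM at 6.0 mg/kg-day. Rpl39, a small protein of the exit tunnel, was at log2 0.13, Rps27a at 0.23 and Rps27 at 0.28, and none passed. When pseudogene and retrocopy rows were summed into the parent gene before the fit, 82 members were tested, 25 rose and 0 had a change below 0. Of all rows in that fit 11.3% rose and 11.2% fell. The change of Rps6 became 0.60 (SE 0.42, adjusted p = 0.326, edgeR). That of Rps27a became 0.93 (adjusted p = 0.00119, edgeR) and that of Rps23 0.59 (adjusted p = 0.0452, edgeR).

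Of the 22 calls, 17 held in the summed fit. The 5 that did not were Rpl3, Rpl15, Rps16, Rps18 and Rpsa, and 8 members passed only there (Rpl10, Rpl10a, Rpl12, Rpl18, Rpl36, Rps12, Rps23 and Rps27a). Of the pseudogene rows themselves, 69 were tested, and their median log2 change at 6.0 mg/kg-day was 0.65. Of these, 10 rose (14.5%, near the 11.2% of all rows) and 0 fell. Without library 22, 5 of 70 rose (7.14%, against 8.22% of all rows), and without library 23, 26 of 72 (36.1%, against 14%). Rpl36a-ps2 was the most abundant of the 10, at 94.7 CPM ± 34.3 in the controls and 252 CPM ± 112 at 6.0 mg/kg-day (SD, n = 4). Among members the share of repeated words was unrelated to the size of the change (Spearman's rho 0.07 over 88 rows, a description). Of the 30 tested members with at most 50% of their words shared 9 rose, and of the 58 others 13.

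How many members passed at 6.0 mg/kg-day rested on single libraries. Library 22 was the highest of its group for 77 of 88 members and library 23 the lowest for 73. Without library 22, 13 of 89 tested members rose, all among the 22, against 8.22% of all rows. Without library 23, 50 of 88 rose, against 14% of all rows. With a term for libraries 3, 11, 15, 19 and 23 in the fit 60 members rose (18.4% of all rows), and without these libraries 65 rose (17.8% of all rows). All 22 genes also passed in both of these fits. The 5 libraries were picked from these data, and each was the lowest of its group in the members' sum. Both fits are therefore a description and no separate support. In the 8 fits that left out a control or 6.0 mg/kg-day library in turn, 12 of the 22 passed every time. They included Rplp1, Rps4x, Rplp0, Rps14, Rpl23, Rpl37 and Rpl4. Every treated library was above every control for 12 of 88 members, against 9.65% of all rows tested, and 11 of these 12 were among the 22.

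Markers of other cells also differed, most of all in library 22. The summed level of 6 T cell markers was 126 CPM there, against 9.22 CPM in library 23 and 2.68 to 5.85 CPM in the controls. All 6, including Cd3e at 10.3 CPM and Lck at 87.7 CPM, were higher in library 22 than in any of the other 19, and none was at 0. Over the groups the T cell sum ran from 2.51 to 4.43 CPM at 0.03, 2.94 to 4.9998 at 0.3, 3.13 to 5.55 at 3.0 and 2.81 to 126 CPM at 6.0 mg/kg-day, and 2 of 4 tested markers rose at 6.0 (0 of 4 without library 22). The sum of 5 neutrophil markers was 24.3 CPM in library 22 and 5.07 to 5.18 CPM in the other 3 livers at 6.0 mg/kg-day, against 0.597 to 1.73 CPM in the controls. It was higher in every 6.0 mg/kg-day liver than in any control, and ran from 0.605 to 1.21 CPM at 0.03, 0.741 to 1.23 at 0.3 and 1.82 to 2.49 at 3.0 mg/kg-day. Of the 2 tested neutrophil markers S100a8 rose at 6.0 mg/kg-day (log2 3.97, adjusted p = 5.90e-06, edgeR), also without library 22 (log2 3.29, adjusted p = 8.07e-06, edgeR). The other, S100a9, did not pass (log2 1.89, adjusted p = 0.0776, edgeR). Without library 22 the change of S100a9 was -0.37 (adjusted p = 0.695, edgeR). S100a8 had the larger mean at 6.0 mg/kg-day, 7.01 CPM against 2.13 CPM for S100a9. The untested neutrophil markers averaged at most 0.405 CPM there. The neutrophil sum at 6.0 mg/kg-day was therefore mostly S100a8 and does not show a rise of all 5 markers. The sum of 6 Kupffer cell markers was 444 CPM in library 22 and 223 to 282 CPM in the controls, and 0 of 6 passed. The sum of 7 hepatocyte markers was 117759 to 162592 CPM in the controls and 76288 to 105874 CPM at 6.0 mg/kg-day. Most of it was albumin, at a mean of 126657 CPM in the controls and 73798 CPM at 6.0 mg/kg-day. Of the 7 markers 3 fell (42.9%, against 11.2% of all rows), and their log2 changes ran from -0.84 to 0.19. Without library 22, 2 of 7 fell (28.6%, against 7.05% of all rows). Without library 22 the median log2 change at 6.0 mg/kg-day was 0.40 over 89 tested members, in place of 0.62 over 88. The part of these cells in the levels of ribosomal protein genes was not tested.

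At 3.0 mg/kg-day 1 of 88 members rose and 0 fell, where 3.18% of all rows rose and 1.43% fell. The median change was 0.21, and 72 members were above 0. With the term for the 5 libraries 5 members rose (Rplp1, Rps4x, Rpl37, Rpl36a and Rpl7l1), against 5.59% of all rows. Without these libraries 2 rose (Rplp1 and Rps27l), against 3.98%. Both shares are close to those over all rows.

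At 0.3 mg/kg-day the members lay below the controls. Their median log2 change was -0.36 (all rows: -0.02), and 79 of 88 were below 0. In the main fit 0 rose and 0 fell, where 0.138% of all rows rose and 0.151% fell. At an unadjusted p under 0.05, 16 members were lower and 2 higher, against 650 lower and 651 higher of all 15197 rows (edgeR). DESeq2 called 1 member lower, Rpl6l, and limma-voom 0. With the term for libraries 3, 11, 15, 19 and 23, 6 members fell: Rps3, Rps6, Rps7, Rps20, Rpl39 and Rpl6l (1.09% of all rows). Without those libraries 5 fell: Rps3, Rps6, Rps7, Rpl19 and Rpl39 (0.601% of all rows). Both fits rest on libraries picked from these data, so their counts are a description. Every treated library was below every control for 5 of 88 members, against 2.97% of all rows.

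Rps6 was at 10.0, 7.77, 6.55 and 7.67 CPM at 0.3 mg/kg-day, and its change was -0.85 in the main fit (adjusted p = 0.209) and -0.82 with the term (adjusted p = 0.00815, edgeR). The term rests on libraries picked from these data, so the smaller adjusted p is a description. Within each set of libraries the order of Rps6 held. The 3 other libraries were lower than the 3 other controls, and library 15 at 6.55 CPM was lower than library 3 at 8.43 CPM. In the sum over all members library 15 (1917 CPM) was not lower than library 3 (1891 CPM). With pseudogene and retrocopy rows summed into the parent, 0 of 82 members passed at 0.3 mg/kg-day, where 0.139% of all rows rose and 0.152% fell. At 0.03 mg/kg-day 0 of 88 members passed, as did 0% of all 15197 rows in edgeR, with a median change of -0.18 over the members. At an unadjusted p under 0.05, 4 members were lower and 0 higher, against 307 lower and 258 higher of all 15197 rows (edgeR). DESeq2 and limma-voom also called 0 members at this dose.

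**Figure D5:**
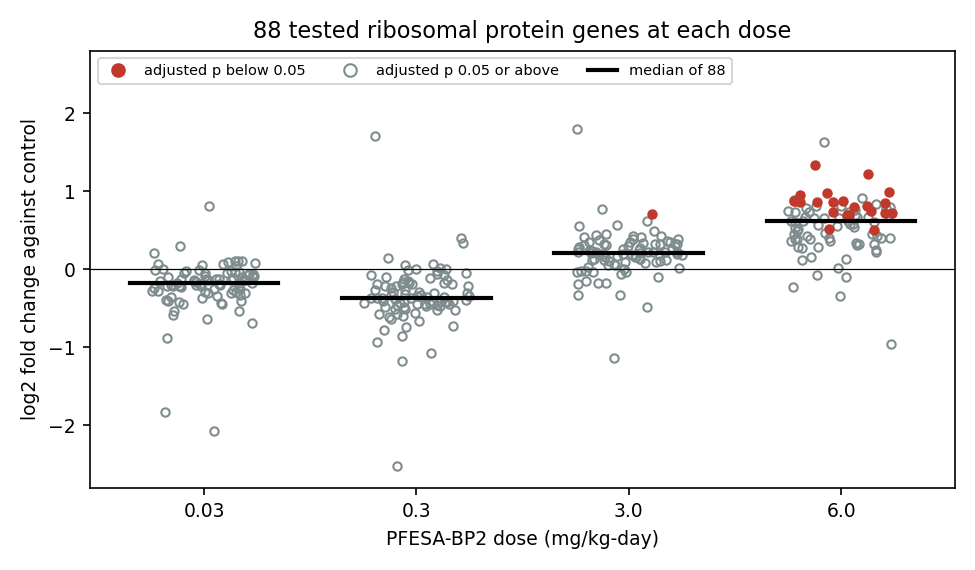
Log2 fold change against control of the 88 tested members at each dose in mg/kg-day, with red points for an adjusted p below 0.05 and bars at the medians of -0.18, -0.36, 0.21 and 0.62. All 4 comparisons use the same 4 control livers.

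Across the doses the group means of 65 of the 88 members stood in the order 0.3, control, 3.0, 6.0 mg/kg-day. The 4 comparisons share the control livers, so their medians are not independent. The joint test, which asks for a difference at any dose, was passed by 32 of 88 members and by 21.4% of all rows (edgeR).

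Compared with the mitochondrial ribosome, the median change of the cytosolic genes (-0.18, -0.36, 0.21 and 0.62 in order of dose) had the same sign and was larger in size. The 80 tested Mrpl and Mrps rows, which encode the ribosome inside mitochondria, had median log2 changes of -0.11, -0.22, 0.04 and 0.20 in order of dose. At 6.0 mg/kg-day 5 of 80 rose and 0 fell, below the 11.2% of all rows that rose. Without library 22, 2 of 80 rose (2.5%, against 8.22% of all rows), and without library 23, 16 of 81 (19.8%, against 14%). Over 2161 other rows with short transcripts (at most 1000 bases) the medians were -0.07, -0.14, 0.10 and 0.27. The short rows moved in the same direction as the members at each dose with smaller medians, and the part of transcript length in the members' changes was not tested.

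Among ribosomal genes outside the naming rule, Rack1, a scaffold on the head of the small subunit, rose from 151 CPM ± 25.5 to 265 CPM ± 49.8 at 6.0 mg/kg-day (SD, n = 4, log2 0.81, adjusted p = 0.000293, edgeR). Fau, a ubiquitin-like protein fused to a small-subunit protein, had a log2 change of 0.37 and did not pass. Rps19bp1, which meets the naming rule and is counted among the members but is not a ribosomal protein, had a change of 0.34 and did not pass.

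Of 25 translation factors 6 rose at 6.0 mg/kg-day and 0 fell (24% higher, against 11.2% of all rows). Without library 22, 3 of the 25 rose (12%, against 8.22% of all rows), and without library 23, 10 (40%, against 14%). Eif2s2, a subunit of the factor that brings the initiator tRNA, went from 75.8 CPM ± 6.15 to 116 CPM ± 24.4 (log2 0.62, adjusted p = 0.00134, edgeR). Eif2s1 (0.55), Eif5a (0.55), which helps form difficult peptide bonds, and Eif3e (0.52) rose too. Of 47 ribosome biogenesis genes 7 rose (14.9%, near the 11.2% of all rows) and 1 fell. Without library 22, 2 of the 47 rose, Nhp2 and Nop58 (4.26%, below the 8.22% of all rows). Without library 23, 11 rose (23.4%, against 14% of all rows) and 4 fell (8.51%, against 16.3%). Nhp2 (log2 1.13), Nop56 (0.91) and Nop58 (0.93), parts of the small nucleolar particles that modify ribosomal RNA, rose. The other listed parts of these particles did not pass. Ubtf, the factor that opens ribosomal DNA for RNA polymerase I, fell from 58.9 CPM ± 3.68 to 43.3 CPM ± 4.93 (log2 -0.44, adjusted p = 0.00383, edgeR).

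Of 15 regulators of these genes 2 rose (13.3%) and 1 fell (6.67%) at 6.0 mg/kg-day, near the 11.2% higher and 11.2% lower of all rows. Without library 22, 1 rose and 1 fell (6.67% each, against 8.22% higher and 7.05% lower of all rows). Without library 23, 2 rose (13.3%, against 14% of all rows) and 6 fell (40%, against 16.3%). Myc rose from 1.22 CPM ± 0.598 to 7.32 CPM ± 3.19 (log2 2.59, SE 0.40, adjusted p = 7.10e-05, edgeR). Ddit4, an inhibitor of mTORC1, rose (log2 0.69), and Larp1, the protein that holds TOP messages, fell from 136 CPM ± 11.7 to 86.6 CPM ± 22.3 (log2 -0.65, adjusted p = 0.00113, edgeR). Rptor, a subunit of mTORC1, had a change of -0.47 and did not pass. Of 10 genes of the Mdm2 and p53 arm 4 rose (40%, against 11.2% of all rows): Gdf15 (log2 2.72), Cdkn1a (1.97), Eda2r (1.89) and Mdm2 (0.55). The rest of this list did not pass at 6.0 mg/kg-day. Those 4 also passed without library 22, where 8.22% of all rows rose. At 0.3 mg/kg-day 1 of the 10 fell, Cdkn1a (log2 -1.60, adjusted p = 0.0479, edgeR), against 0.151% of all rows. At 3.0 mg/kg-day 2 rose, Gdf15 and Cdkn1a, against 3.18% of all rows. Of the other genes named here, Nop56, Eif3e and Ddit4 no longer passed at 6.0 mg/kg-day without library 22 (adjusted p = 0.105, 0.102 and 0.0664, edgeR).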

How the data were processed

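Per the values of the deposited table, the authors gave expected counts, 1 column for each library and 1 row for each gene. Partek and GRCm38.p5 are named in the submitters' processing notes. Aligner, counting, strand setting and annotation: not given in the sources used here. Expected counts were rounded, filtered with edgeR's filterByExpr (15197 of 22103 rows kept) and scaled by TMM. A single fit of 20 libraries with a mean per group (edgeR 4.0.16 in R 4.3.3, quasi-likelihood, 15 residual degrees of freedom) gave all tests, with Benjamini-Hochberg adjustment over all rows. SE is the absolute log2 change divided by the square root of F. The fit was tested on simulated data. Alternatives were other scalings, no filter, DESeq2 1.42.0, limma-voom 3.58.1, only the groups compared, a term for libraries 3, 11, 15, 19 and 23 or their removal, each library left out, and, added after seeing the data, pseudogene rows summed into their parents.

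The members and lists were chosen with earlier results of these data known. Genes named were up to 16 members with the smallest adjusted p, a set of sentinels, the 3 highest and 3 lowest core members per length, the 3 members highest and 3 lowest in the libraries apart, and 4 genes per list, ranked by adjusted p at 6.0 mg/kg-day. Rpl39l, 1 of the sentinels, has no row in the table used here. Other members were named after their values were seen, and the results of a few genes are not reported here. Nothing says that lanes or RNA extractions were batched, and p-values measure the spread between mice.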

Additional observations from a re-analysis of the deposited data

Results flagged for a closer look

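Within groups of 4, single libraries stood far from the other 3 in 11 of 185 sets of values checked (the summed share and each named member at each dose). Chance gives about 1 in 20, which is near this share. The named members include the 3 highest and 3 lowest in libraries 3, 11, 15, 19 and 23. Flags for those members in these libraries follow in part from that choice, so the list is a description. Library 19, at 3.0 mg/kg-day, accounts for 6 of the 11. It was low for Rpl34 (8.59 CPM, the other 3 from 22.9 to 25.5), Rpl7l1 (23.5 CPM, others 38.5 to 40.4) and Rps28 (2.17 CPM, others 4.68 to 4.87). It was high for Rpl22l1 (58.2 CPM, others 26.5 to 31.7), Rpl37a (108 CPM, others 68.4 to 72.6) and Rps7 (12.6 CPM, others 4.62 to 5.64). Library 15, at 0.3 mg/kg-day, was high for Rpl37a (96.2 CPM, others 52.7 to 56.7) and Rps7 (4.77 CPM, others 2.36 to 2.69). Library 11, at 0.03 mg/kg-day, was low for Rplp2 (13.8 CPM, others 22.4 to 23.6). Beyond these 5 libraries, library 20 at 3.0 mg/kg-day was high for Rpl37 (8.17 CPM, others 5.81 to 6.09). Library 16 at 0.3 mg/kg-day was low for Rpl38 (4.11 CPM, others 7.34 to 7.90).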

How the results depend on the processing

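The count of members passing at 6.0 mg/kg-day was 12 when only the groups compared were fitted, where 6.95% of all rows rose. It was 60 with the term for libraries 3, 11, 15, 19 and 23 (18.4% of all rows) and 65 without those libraries (17.8%). It ran from 13 (8.22% of all rows) to 50 (14%) when each library was left out. At 3.0 mg/kg-day it was 5 with the term (5.59% of all rows) and 2 without the 5 libraries (3.98%), and 1 with each library left out. At 0.3 mg/kg-day it was 1 with DESeq2, 1 with only the groups compared, 6 with the term and 5 without the 5 libraries, all lower. The shares of all rows that fell in these fits were 0.572%, 0.229%, 1.09% and 0.601%. It ran from 0 to 1 with each library left out. Between 6.0 and 3.0 mg/kg-day it was 0 with no filter, 4 with DESeq2, 0 with only the groups compared, 12 with the term and 20 without the 5 libraries. The shares of all rows that were higher in these fits were 0.624%, 2.34%, 0%, 4.61% and 4.55%. It ran from 0 to 12 with each library left out (2.6% of all rows in the fit with 12). The joint test was passed by 72 members with the term, 75 without the 5 libraries and 22 to 60 with each library left out. The shares of all rows in those joint tests are not given here, so these counts cannot be set against them. The direction at 6.0 mg/kg-day turned for members near 0. With each library left out Rps6 ran from -0.38 to 0.065, Rpl39 from -0.13 to 0.53, Rps27 from -0.073 to 0.57 and Rps7 from -0.098 to 0.35. Rps6 was at 0.60 with pseudogene rows summed, and Rps7 at -0.014 without the 5 libraries. The cause was not tested. Other scalings moved the median of all rows by at most 0.05 and kept every count within 1.5 times. The medians of the members kept their sign throughout, with a range of 0.40 to 0.82 at 6.0 mg/kg-day over the libraries left out. A share of counts without mitochondrially encoded rows could not be computed, since 0 rows carry such names. No paired analysis was possible because the groups share no replicate numbers. The number of 4 mice per dose limits the precision of each change, and 6 members averaged under 1 CPM.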
